A study of Mus musculus with 16 samples.

Results

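The transcripts of the phagocyte NADPH oxidase and of the Fc gamma receptors were examined in adipose tissue (AT) of lean and obese mice. The group holds 9 genes: the oxidase subunits Cybb, Cyba, Ncf1 and Ncf4, the receptors Fcgr1, Fcgr2b, Fcgr3 and Fcgr4, and Fcer1g, which encodes the signaling chain of the activating receptors. Members were chosen by gene symbol, as every row of the expression table whose RefSeq transcript belongs to one of these symbols. This gave 22 of the 130343 rows, among 35565 gene symbols in all. The rule uses no measured value, though the genes were picked with earlier results of these data known.

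Phagocytes such as macrophages and neutrophils take up particles coated with IgG through Fc gamma receptors. Binding of IgG clusters the receptors, the associated gamma chain is phosphorylated by Src family kinases, and Syk is recruited to it. One outcome is the assembly of the NADPH oxidase, in which the membrane subunits encoded by Cybb and Cyba join cytosolic subunits and a Rac GTPase to make superoxide. Fcgr2b is the inhibitory receptor of the family and opposes the activating ones. In AT these genes are best known from macrophages, whose number grows with obesity.

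Poly(A)-selected RNA was sequenced from inguinal subcutaneous AT (SAT) and mesenteric visceral AT (VAT) of 8 male WT C57Bl/6 mice (substrain C57BL/6J by the study's methods). From 10 weeks of age, 4 mice were kept on a normal laboratory diet (lean) and 4 were fed a high-fat diet with 42% of its energy from fat and 0.2% cholesterol (obese), each for 12 to 14 months. Each mouse gave 1 SAT library, in which the left and right depots were combined, and 1 VAT library, so that 16 libraries formed 4 groups of 4. All groups share sex, strain and diet duration, so the comparison of diets is one of aged male mice only.

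Libraries held between 1256082 and 16614407 counts, and the shallowest, VAT of lean replicate 1 with 1256082 counts and VAT of obese replicate 1 with 2247737, were both of VAT. Levels are given as CPM, the count of a transcript scaled to the library's counts on tested transcripts with TMM factors, as mean ± SD of 4 mice. A count of 0 allows up to 3 counts, or 0.179 to 1.92 CPM on this scale depending on the library, by counting error alone. The macrophage marker Csf1r, the receptor for macrophage colony-stimulating factor, was found in all 16 libraries, with means from 259 CPM in SAT of lean mice to 827 CPM in VAT of obese mice. Adipocyte markers summed to between 15249 and 57817 CPM per library. The labels name no batch. Whole tissue was sequenced, so more cells of a type and more RNA per cell cannot be told apart in any value below.

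Of the 22 rows, 6 had enough counts to be tested (CPM above 1 in at least 3 of 16 libraries), 1 row for each of Cybb, Cyba, Fcgr1, Fcgr2b, Fcgr4 and Fcer1g. Each of these passed the limit in 14 to 16 libraries, so none passed through 1 group alone. Fcgr1, Fcgr4 and Fcer1g have a single transcript in the table. Cyba and Fcgr2b have 2, of which the second had 0 counts in all libraries, and Cybb has 2, with 351 and 68 counts.

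The other 3 genes could not be followed. Ncf1, the cytosolic organizer of the oxidase, had 11 counts over 4 transcripts and 16 libraries. Ncf4, another cytosolic subunit, had 1 count over 3 transcripts. Fcgr3, the low-affinity activating receptor, had 18 counts over 6 transcripts, with at most 4 in a library. These genes have several RefSeq transcripts, and how reads shared by several transcripts were counted is not stated. Among all 21683 protein-coding genes listed, 37.6% have a single transcript, yet 88.7% of all protein-coding counts fall on such genes. The median total count, however, was 25 for genes with a single transcript and 28 to 65 for genes with more. Since the handling of shared reads is not known, the low counts of Ncf1, Ncf4 and Fcgr3 are not read as low expression, and no group comparison of them was made.

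**Figure D1:**
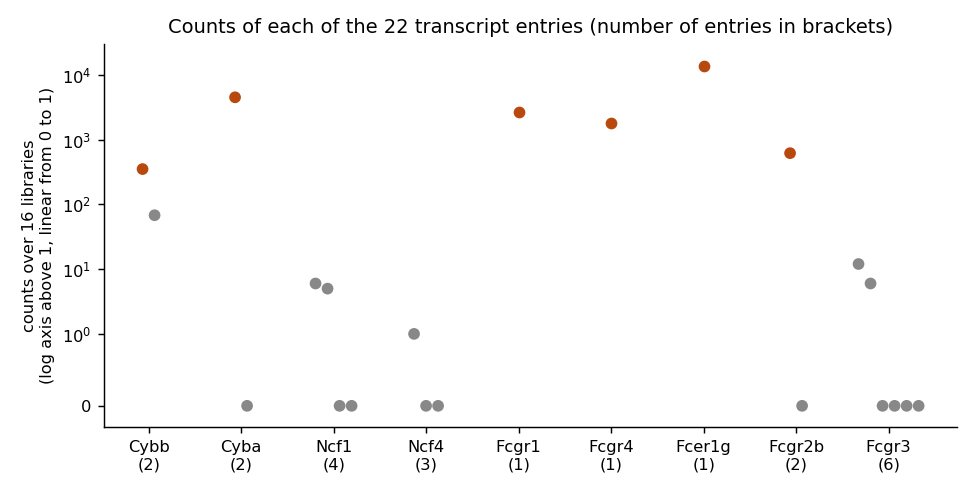
Counts over all 16 libraries (vertical axis, logarithmic above 1) of each of the 22 transcript rows, by gene, with the number of rows of each gene in brackets. Colored points are the 6 tested rows, with between 351 (Cybb) and 13886 (Fcer1g) counts, and grey points are the rows that were not tested, with at most 68.

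By the current mouse annotation (GRCm39), Cybb lies on chrX:9301491-9354010, Cyba on chr8:123150422-123159706 and Fcgr1 on chr3:96190225-96201338, each on the minus strand. The other receptors lie close together on chromosome 1. Fcgr2b spans chr1:170786186-170804177 (minus strand), Fcgr4 chr1:170846466-170857330 (plus strand), Fcgr3 chr1:170878738-170893549 (minus strand) and Fcer1g chr1:171057141-171062219 (minus strand). On the opposite strand, Cyba overlaps Il17c, Cybb overlaps Xk and a long noncoding RNA, Ncf1 overlaps Gtf2ird2, and Fcgr2b and Fcgr4 each overlap a long noncoding RNA. On the same strand, Fcer1g overlaps a long noncoding RNA, Fcgr4 a small nuclear RNA and Fcgr3 a microRNA. The library kit marks strand, but the strand setting of the counting is not stated, so reads of such overlapping pairs cannot be told apart here, and for the pairs on 1 strand, Fcer1g among them, strand would not separate them.

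In VAT, all 6 measured genes were higher in obese than in lean mice, from 2.13-fold for Fcgr2b to 8.05-fold for Fcgr4. All 6 passed the test (edgeR quasi-likelihood F-test, Benjamini-Hochberg adjusted p below 0.05 over 13288 transcripts), against a background of 6.82% of tested transcripts called higher in VAT. None fell. In all 6, each obese library lay above each lean library, which held for 8.36% of tested transcripts. Above a log2 fold change of 1.5 there were 2, Fcgr4 and Fcgr1 (2.33% of all tested), of which Fcgr1 lay at the limit, with a log2 fold change of 1.33 to 1.6 when 1 mouse was left out. With counts summed per gene Fcgr4 alone exceeded it (2.25% of all summed genes), and Fcgr1 had 1.47. The median log2 fold change of the 6 was 1.44, and that of all tested transcripts 0.02. Without the lean and the obese mouse with the shallowest VAT libraries, 5 of the 6 were called, all but Fcgr2b (adjusted p = 0.0871, edgeR). With counts summed per gene, again 6 genes were called (6.88% of all summed genes called higher).

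In SAT, 2 of the 6 genes rose with the high-fat diet, Fcgr4 (3.16-fold) and Fcgr1 (1.79-fold). The background was 6.2% of transcripts called higher. Only these 2 of the 6 showed no overlap between obese and lean SAT libraries, which held for 9.61% of tested transcripts. Fcgr4 alone exceeded a log2 fold change of 1.5 (1.5% of all tested). The other 4 genes did not pass the test. The median log2 difference of the 6 was 0.52, beside 0.01 for all tested transcripts. Summing counts per gene gave 2 calls, too (6.35% of all summed genes).

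**Figure D2:**
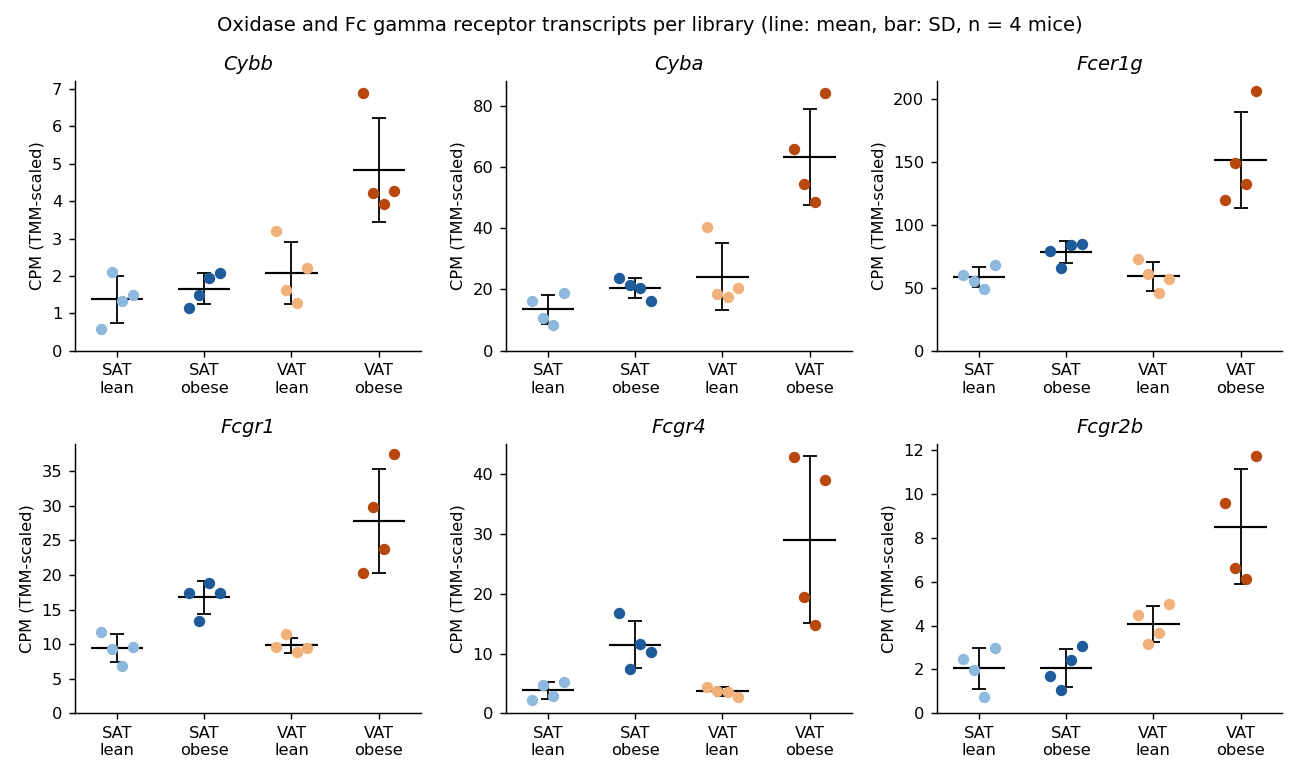
TMM-scaled CPM (vertical axes, linear from 0) of the 6 tested transcripts in each library, by tissue and diet, with the mean (line) and SD (bar) of 4 mice. In VAT all obese points lie above all lean points in each panel, and in SAT this holds for Fcgr1 and Fcgr4.

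Among the activating receptors, Fcgr4, which binds IgG with intermediate affinity, differed most between diets. In SAT it was found at 2.31, 4.78, 2.95 and 5.32 CPM in lean replicates 1 to 4 and at 16.8, 7.42, 11.6 and 10.2 CPM in obese replicates 1 to 4. In VAT the lean libraries held 4.48, 3.77, 3.65 and 2.76 CPM and the obese libraries 42.9, 19.4, 14.9 and 39.1 CPM. The lowest obese library was above the highest lean library in both tissues, and obese VAT varied most, with replicates 1 and 4 well above the other two. The log2 fold change was 1.66 (SE 0.33, adjusted p = 0.00231) in SAT and 3.01 (SE 0.35, adjusted p = 4.61e-06) in VAT by edgeR. Lean mice had nearly equal means in the tissues, 3.84 ± 1.44 CPM in SAT and 3.67 ± 0.706 CPM in VAT.

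Fcgr1, the high-affinity IgG receptor, was also higher in obese mice in both tissues, by smaller log2 fold changes than those of Fcgr4. Its level was 11.8, 9.29, 6.86 and 9.57 CPM in lean SAT and 17.4, 13.3, 18.9 and 17.4 CPM in obese SAT. Lean VAT held 9.61, 11.4, 8.90 and 9.50 CPM, and obese VAT 20.3, 29.8, 23.8 and 37.4 CPM. All obese libraries exceeded all lean ones in both tissues. By edgeR the log2 fold change was 0.84 (SE 0.20, adjusted p = 0.00772) in SAT and 1.5 (SE 0.20, adjusted p = 3.14e-05) in VAT.

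Fcer1g encodes the gamma chain that carries the activation motif for Fcgr1, Fcgr3 and Fcgr4 and for the high-affinity IgE receptor. It had the most counts of the group, between 114 and 2406 per library. SAT libraries held 60.4, 55.6, 49.0 and 68.3 CPM in lean mice and 78.8, 65.5, 83.9 and 84.8 CPM in obese mice. Here obese replicate 2 fell below lean replicate 4, and the log2 difference of 0.43 (SE 0.16) did not pass the test (adjusted p = 0.0949, edgeR). VAT libraries held 73.0, 60.7, 45.6 and 56.7 CPM in lean mice and 120.0, 149, 132 and 206 CPM in obese mice, without overlap. The log2 fold change in VAT was 1.39 (SE 0.17, adjusted p = 7.12e-06, edgeR). A fit of the 8 SAT libraries alone called Fcer1g in SAT (adjusted p = 0.0421, edgeR). Under the other 16 of 17 alternatives it was not called in SAT, with an adjusted p up to 0.222 (edgeR) when 1 mouse was left out.

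Fcgr2b, the receptor with an inhibitory motif, showed no difference in SAT beyond the spread between mice. It was at 2.48, 1.97, 0.762 and 2.98 CPM in lean SAT and at 1.69, 1.06, 2.42 and 3.09 CPM in obese SAT, ranges that largely overlap, with a log2 difference of 0.09 and a 95% interval of -0.68 to 0.86. In VAT it was at 4.48, 3.17, 3.65 and 4.97 CPM in lean mice and at 9.58, 6.60, 6.13 and 11.7 CPM in obese mice. These did not overlap, and the log2 fold change was 1.09 (SE 0.34, adjusted p = 0.0380, edgeR). This call was lost without any one of lean replicates 2, 3 and 4 or obese replicates 1 and 4, with adjusted p values from 0.0546 to 0.176.

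The membrane subunits of the oxidase rose in VAT and did not pass the test in SAT. Cyba, the smaller subunit that stabilizes the catalytic one and also serves other NADPH oxidases, was at 16.3, 10.7, 8.48 and 18.7 CPM in lean SAT and 23.8, 21.4, 20.4 and 16.2 CPM in obese SAT. One obese library, replicate 4, lay within the lean range, and the log2 difference was 0.61 (SE 0.25, adjusted p = 0.125, edgeR). VAT held 40.4, 18.4, 17.6 and 20.3 CPM in lean mice and 65.9, 54.4, 48.6 and 84.3 CPM in obese mice. The groups did not overlap, although lean replicate 1, from the shallowest library, was nearest to the obese range. The log2 fold change in VAT was 1.5 (SE 0.25, adjusted p = 3.44e-04, edgeR). Fitting with no filter on low counts called Cyba in SAT, too (adjusted p = 0.0313, edgeR). Under 15 of 17 alternatives Cyba was not called in SAT, with an adjusted p up to 0.336 (edgeR) when 1 mouse was left out.

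Cybb, the catalytic subunit, had few counts, from 5 to 51 per library in its main transcript. In SAT this transcript was at 0.578, 2.11, 1.33 and 1.49 CPM in lean mice and 1.15, 1.48, 1.93 and 2.08 CPM in obese mice. The lean library with the most Cybb lay above all obese libraries, and the log2 difference of 0.35 had a 95% interval of -0.42 to 1.12. In VAT it was at 3.20, 1.62, 1.29 and 2.21 CPM in lean mice and 6.90, 4.21, 3.93 and 4.28 CPM in obese mice, without overlap. The log2 fold change was 1.32 (SE 0.35, adjusted p = 0.0161, edgeR), and the call was lost without lean replicate 2 (adjusted p = 0.0564, edgeR) or lean replicate 3 (adjusted p = 0.0822, edgeR).

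The second Cybb transcript, a predicted model with 68 counts, was distributed otherwise. It was at 0.248, 0.422, 0.191 and 0.213 CPM in lean SAT and 1.00, 0.847, 1.79 and 0.309 CPM in obese SAT. In VAT it had at most 2 counts in any library. The rise of its counts in obese SAT did not pass the test when transcripts were fitted without a filter on low counts (log2 difference 1.89, adjusted p = 0.164, edgeR). Summed over both transcripts, Cybb had log2 differences of 0.74 (SE 0.35, adjusted p = 0.180) in SAT and 1.29 (SE 0.35, adjusted p = 0.0173) in VAT by edgeR.

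The response in VAT was then tested against that in SAT, in a fit that keeps the mouse as a block. Only Fcer1g passed, with a log2 difference of 0.94 between the responses (SE 0.19, adjusted p = 0.00777, edgeR), which is 1 of 6 against 0.88% of tested transcripts. With summed counts it was also 1 of 6 (0.853% of all summed genes), and 0 of 6 in a fit of the summed counts without the mouse as a block. Fcgr4 had the widest difference, 1.40 with a 95% interval of 0.61 to 2.2, and an adjusted p of 0.0566 by edgeR. It was called with no filter, by DESeq2, without lean replicate 1 and without obese replicate 3, with adjusted p values of 0.0159 to 0.0296. Under the other 12 of 16 alternatives it was not called, with an adjusted p up to 0.213 (edgeR) when 1 mouse was left out. The differences of the other 4 were 0.59 for Fcgr1, 0.80 for Cyba, 0.93 for Fcgr2b and 1.10 for Cybb (0.68 for its sum), and none passed. So for these 4 genes a call in VAT beside none in SAT, or a call in both, is no test of unequal responses of the tissues. The median difference of the 6 was 0.93, beside 0.03 for all tested transcripts.

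**Figure D3:**
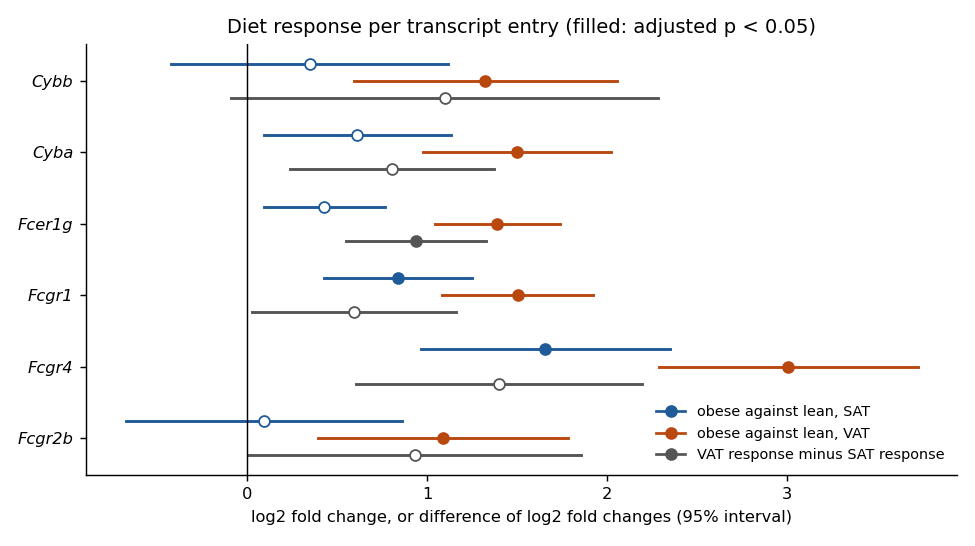
Log2 fold change of obese against lean mice in SAT (blue) and VAT (orange), and the VAT response minus the SAT response (grey), with 95% intervals, for the 6 tested transcripts. Filled points have an adjusted p below 0.05: 2 of 6 in SAT, 6 of 6 in VAT and Fcer1g alone for the difference.

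SAT and VAT came from the same mice, so the depots were compared within each mouse. In lean mice 2 of 6 genes were called higher in VAT, Fcgr2b and Cyba (8.0% of tested transcripts), and none was called lower. Fcgr2b was 2.14-fold higher in VAT (log2 1.10, SE 0.33, adjusted p = 0.0274, edgeR), without overlap of the libraries, which held for 8.87% of tested transcripts. Cyba was 1.75-fold higher (log2 0.81, SE 0.20, adjusted p = 0.00722, edgeR), with overlap. Each was higher in VAT in 4 of 4 lean mice. Both calls were lost without lean replicate 3 and in a fit without the mouse as a block (adjusted p = 0.0796 and 0.0622, edgeR), and that of Cyba without lean replicate 1. The other 4 genes were higher in VAT in 2 of 4 lean mice each, with log2 differences of 0.37 for Cybb, 0.13 for Fcgr1, 0.00 for Fcer1g and -0.14 for Fcgr4.

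In obese mice all 6 genes were called higher in VAT (15.9% of tested transcripts), and each was higher in VAT in 4 of 4 mice. The log2 differences were 2.03 for Fcgr2b, 1.61 for Cyba, 1.46 for Cybb, 1.26 for Fcgr4, 0.94 for Fcer1g and 0.72 for Fcgr1. The libraries of the tissues did not overlap for 5 of the 6, the exception being Fcgr4 (15.1% of tested transcripts did not overlap in this direction). Among the 6 estimates, Fcgr4 had the largest diet response in each tissue, whereas Fcgr2b and Cyba had the largest depot differences in obese mice. The call of Fcgr1 was lost without obese replicate 4 (adjusted p = 0.0559, edgeR). With counts summed per gene, 2 genes were called in lean mice (8.67% of all summed genes) and 5 in obese mice (16.3%). The gene not called was Cybb, whose second transcript had more counts in SAT. Its sum had a log2 difference of 0.84 (adjusted p = 0.0625, edgeR), the second lowest of the 6 summed genes after Fcgr1 with 0.70. The sum was called under 4 of 16 alternatives, with adjusted p values of 0.0435 by edgeR with legacy=FALSE, 0.0279 by voom, and 0.0365 without lean replicate 1 and 0.0353 without obese replicate 3 by edgeR.

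**Figure D4:**
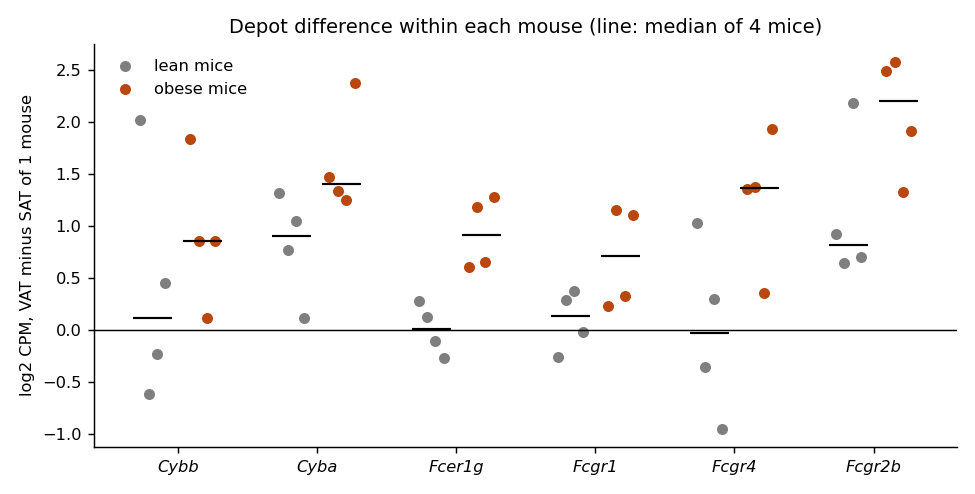
Log2 CPM in VAT minus log2 CPM in SAT of the same mouse (vertical axis, counts summed per gene), for 4 lean (grey) and 4 obese (orange) mice, with the median as a line. All obese points lie above 0 for all 6 genes, while lean points lie above 0 in 4 of 4 mice for Cyba and Fcgr2b and in 2 of 4 for the other genes.

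Because Fcgr4 activates and Fcgr2b inhibits, the ratio of their counts was compared within each library, where it does not depend on scaling. It was 0.934, 2.38, 3.71 and 1.76 in lean SAT and 9.71, 6.71, 4.75 and 3.27 in obese SAT. In VAT it was 1.00, 1.19, 1.00 and 0.560 in lean mice and 4.41, 2.93, 2.41 and 3.32 in obese mice. The diets overlapped in SAT through lean replicate 3 and obese replicate 4, and did not overlap in VAT. The mean log2 ratio was higher in obese mice by 1.53 in SAT (p = 0.0571, two-sided exact permutation test over 70 assignments) and by 1.82 in VAT (p = 0.0286, two-sided exact permutation test). The latter is the smallest p that 4 against 4 mice allow, and after adjustment over the 4 ratio tests run it was 0.114. Fcgr2b has 2 transcripts in the table and Fcgr4 has 1, and how shared reads were counted is not known. The ratio is therefore one of counts, and its size within a group is not read as relative expression.

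The ratio of Cybb to Cyba, the subunits that form the membrane core of the oxidase, did not differ beyond the spread between mice. In SAT its log2 was -3.03 ± 0.98 in lean and -2.95 ± 0.445 in obese mice, and in VAT -3.43 ± 0.288 and -3.64 ± 0.485 (SD, n = 4). The p values were 0.886 in SAT and 0.457 in VAT (two-sided exact permutation tests). Lean SAT spread most, from -4.23 to -2.05. These ratios compare counts within a gene pair and are no measure of the amounts of subunit protein. Cybb and Cyba have 2 transcripts each, so the limit on shared reads holds for them as well.

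Macrophage markers moved with the group. Of 12 markers, 10 genes with 11 transcripts were tested, of which 5 transcripts rose in SAT (6.2% of all tested transcripts) and 8 in VAT (6.82%), and none fell. Their summed level was 1421 to 2045 CPM in lean SAT, 2305 to 3244 CPM in obese SAT, 2500 to 3264 CPM in lean VAT and 5569 to 7914 CPM in obese VAT. Csf1r rose by a log2 fold change of 0.81 in SAT and 0.91 in VAT, and Cd68, a lysosomal glycoprotein of macrophages, by 1.44 in SAT and 2.36 in VAT. Adgre1, a defining macrophage marker with 4 transcripts, had 12 counts over all libraries. The part of macrophage content in the values of the oxidase and receptor genes was not tested.

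Set against Csf1r in the same library, Fcgr4 was higher in obese than in lean VAT by 1.93 on the log2 scale, Fcgr1 by 0.55 and Fcer1g by 0.44, each without overlap of the libraries. In SAT none of the 6 ratios to Csf1r was free of overlap, with differences from -0.75 for Fcgr2b to 0.78 for Fcgr4. Against Cd68 most differences were negative. In VAT Cyba, Fcgr1, Fcgr2b and Fcer1g were lower relative to Cd68 in obese mice, by -0.85, -0.84, -1.28 and -0.95, and in SAT Cyba, Fcgr1 and Fcer1g were lower by -0.79, -0.59 and -1.01, each without overlap. Fcgr4 alone had a positive difference against both markers in both tissues, though its libraries overlapped against Cd68. These ratios were chosen after the values were seen and carry no test.

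**Figure D5:**
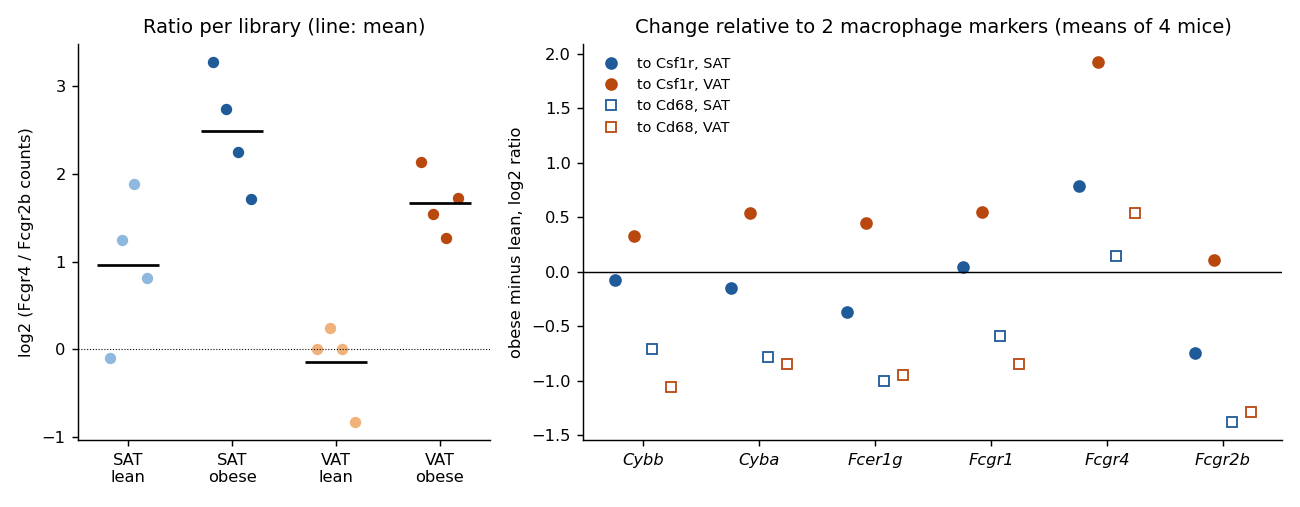
Left, log2 ratio of Fcgr4 to Fcgr2b counts per library with the mean of 4 mice as a line. Right, obese minus lean difference of the mean log2 ratio of each gene to Csf1r (filled circles) and to Cd68 (open squares) in SAT (blue) and VAT (orange). The Fcgr4 to Fcgr2b ratio separates the diets in VAT, and Fcgr4 is the one gene above 0 against both markers in both tissues.

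Markers of other cells that carry these genes were also measured. Of 11 neutrophil marker genes 2 were tested, Ly6g had 0 counts in all libraries, and the summed level was 3.32 to 23.8 CPM per library. As for Ncf1, Ncf4 and Fcgr3, such counts are not read as low expression. S100a8, a calcium-binding protein of neutrophils and monocytes, rose in VAT (log2 1.07, adjusted p = 0.0321, edgeR) without a call in SAT. For B cells, in which Fcgr2b is the main Fc gamma receptor, 3 of 5 tested markers were called higher in obese VAT and none in obese SAT. Their summed level was 38.5 to 276 CPM in lean VAT and 244 to 454 CPM in obese VAT, but 6.00 to 13.2 CPM in SAT. Mast cell markers, 3 of 4, natural killer cell markers, 2 of 3, dendritic cell markers, 4 of 7, T cell markers, 2 of 4, and pan-leukocyte markers, 2 of 2, were called higher in obese VAT (6.82% of all tested transcripts). In SAT the counts were 0 of 4, 0 of 3, 1 of 7, 0 of 4 and 2 of 2 (6.2% of all tested). Adipocyte marker transcripts were called lower in obese VAT for 6 of 13 (4.09% of tested transcripts called lower) and for 0 of 13 in SAT. Of the markers of tissues next to the fat, 0 of 1 for skeletal muscle, 0 of 4 for intestinal epithelium, 1 of 3 for exocrine pancreas and 0 of 6 for mesothelium were called higher in obese VAT and none lower, and in obese SAT 1 of 3 for exocrine pancreas was called higher and 1 of 1 for skeletal muscle lower. Between the depots of obese mice, 9 of 11 macrophage, 5 of 7 dendritic cell, 5 of 5 B cell, 4 of 4 T cell and 6 of 6 mesothelium marker transcripts were called higher in VAT (15.9% of all tested), and 11 of 13 of adipocytes were called lower (13.5%). In lean mice these counts were 6, 2, 4, 1 and 6 higher (8.0%) and 3 lower (6.84%). Other leukocyte calls went the other way. In obese mice 1 of 7 dendritic cell, 1 of 2 neutrophil and 1 of 3 natural killer cell transcripts were called lower in VAT. Another 1 of 3 natural killer cell transcripts was called higher, and 0 of 4 mast cell transcripts were called. In lean mice 1 of 2 neutrophil, 1 of 3 natural killer cell and 3 of 4 mast cell transcripts were called lower in VAT. Pan-leukocyte transcripts were called higher in VAT with either diet, 2 of 2. For the difference of the diet responses, in which Fcer1g was called, the macrophage marker C1qb (log2 0.83, adjusted p = 0.00870), the dendritic cell marker Itgax (1.55 in 1 of 2 transcripts, adjusted p = 0.0133), the B cell marker Pax5 (1.74, adjusted p = 0.0243) and the signaling chain gene Tyrobp (1.07, adjusted p = 0.0210) were called higher as well (edgeR, 0.88% of all tested), and the adipocyte marker Plin1 lower (-0.77 in 1 of 2 transcripts, adjusted p = 0.0320, edgeR, 1.29%). Each of these genes was the only call of its list for this difference. They were 1 of 11 macrophage, 1 of 7 dendritic cell and 1 of 5 B cell transcripts. The list of receptor signaling genes had 1 of 11 and the adipocyte list 1 of 13. List medians were 0.65, 0.20, 1.74, 0.44 and -0.56 in that order. No T cell, natural killer cell, mast cell, neutrophil or pan-leukocyte transcript was called. The part of these cell types in the receptor and oxidase values was not tested.

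Of the oxidase partners and related NADPH oxidases examined, 14 genes in all, 4 genes with 5 transcripts were tested. None was called in SAT (6.2% of all tested transcripts) and 1 rose in VAT, Rac2 (6.82%). Rac2, the Rac GTPase of blood cells, was at 27.3 CPM in lean SAT, 40.2 in obese SAT, 70.4 in lean VAT and 171 in obese VAT (means of 4), with a log2 fold change of 1.32 in VAT (SE 0.22, adjusted p = 2.79e-04, edgeR). The ubiquitous Rac1 and the proton channel gene Hvcn1 had log2 differences of 0.35 and 0.19 in VAT and were not called.

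Of 18 genes for signaling proteins downstream of the receptors, 10 with 11 transcripts were tested. In SAT 5 transcripts rose (6.2% of all tested transcripts), those of the kinase Syk (log2 0.98), the phospholipase Plcg2 (0.98), the adaptors Lcp2 (0.53) and Pik3ap1 (1.57), and Tyrobp (0.63), a signaling chain of the same type as Fcer1g. In VAT 7 rose (6.82% of all tested), the same 5 genes with log2 fold changes of 1.29, 1.26, 1.18, 1.75 and 1.81, and the Src family kinase Fgr (1.31) and the adaptor Lat2 (1.89). No transcript of the list fell. In each tissue, a further tested transcript of Pik3ap1 was not called. With counts summed per gene, 5 genes of the list were called higher in SAT and 6 in VAT (6.35% and 6.88% of all summed genes). The median of the list was 0.64 in SAT and 1.29 in VAT.

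Of the other receptors for immunoglobulins, 8 transcripts of 7 genes were tested. None was called in SAT, and in VAT 1 rose and 1 fell (6.82% and 4.09% of all tested transcripts), with list medians of 0.39 and 0.66 on the log2 scale. Fcrls, an Fc receptor-like gene, rose by a log2 fold change of 0.87 (adjusted p = 0.0398, edgeR). Pigr, which carries IgA and IgM across epithelia, had a log2 fold change of -3.15 (adjusted p = 0.0211, edgeR), with overlap of the groups. Fcgrt, the neonatal receptor that recycles IgG, had log2 differences of -0.35 in SAT and -0.23 in VAT and was not called. Of the myeloid transcription factors examined, 5 transcripts of 3 genes were tested. None was called in SAT. In VAT Spi1, which encodes PU.1, rose (log2 fold change 1.02, adjusted p = 0.0212, edgeR, 1 of 2 transcripts), and no transcript fell.

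PU.1 binds purine-rich sites in promoters of myeloid genes, so the promoters of the group were searched for its core, GAGGAA, on both strands. RefSeq windows of 300 bases (250 before to 50 after the start, build GRCm38.p6) were at hand for 8 of the 9 genes. The 8 genes had 9 windows, of which 5 held the core, those of Fcgr1, Fcgr4 and Cybb and both of Fcgr3, which overlap each other, beside 28.3% of all 32851 windows. The 3 measured genes among them are shown, because Fcgr4 and Fcgr1 were the genes called in both tissues and Cybb is the catalytic subunit. Capitals mark the core, which in each lies on the strand opposite to the gene and so reads TTCCTC. The windows are chr1:171018676-171018975 (plus strand), chr3:96293920-96294219 (minus strand) and chrX:9469275-9469574 (minus strand), printed 5′ to 3′ along the gene.
Fcgr4: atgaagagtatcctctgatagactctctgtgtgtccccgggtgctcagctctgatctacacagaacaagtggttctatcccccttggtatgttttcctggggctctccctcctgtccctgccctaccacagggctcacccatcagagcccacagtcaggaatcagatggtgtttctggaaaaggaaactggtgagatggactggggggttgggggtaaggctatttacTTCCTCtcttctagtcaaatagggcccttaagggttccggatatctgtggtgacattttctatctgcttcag
Fcgr1: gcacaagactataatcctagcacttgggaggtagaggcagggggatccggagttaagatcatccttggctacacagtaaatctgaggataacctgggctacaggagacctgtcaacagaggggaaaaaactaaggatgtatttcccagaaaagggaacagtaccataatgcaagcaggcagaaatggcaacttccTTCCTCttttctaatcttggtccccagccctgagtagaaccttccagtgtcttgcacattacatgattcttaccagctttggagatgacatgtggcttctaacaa
Cybb: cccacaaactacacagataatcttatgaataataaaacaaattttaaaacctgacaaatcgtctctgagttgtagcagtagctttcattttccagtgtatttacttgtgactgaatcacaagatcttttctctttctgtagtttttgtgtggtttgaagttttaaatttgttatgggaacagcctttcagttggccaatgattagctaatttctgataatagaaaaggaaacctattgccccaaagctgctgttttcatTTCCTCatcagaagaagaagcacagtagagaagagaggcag

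The core starts 22 bases before the annotated start in Fcgr4, 55 bases before it in Fcgr1 and 9 bases after it in Cybb. The windows of Fcgr2b, Fcer1g, Cyba and Ncf1 held no match, and Fcgr2b, Fcer1g and Cyba rose in VAT as well. A match is a run of letters and was not examined for binding.

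Across the 16 libraries, the transcripts with levels most like Cybb were those of Tnfsf8 (Pearson r of log2 CPM 0.908), Cyp8b1 (0.907), Serpina3g (0.894), Cd300lb (0.893) and Mast1 (0.893). For Fcer1g, added after its values were seen, they were Cd300c2 (0.963), H2-Aa (0.961), Tyrobp (0.961), Itgax (0.956) and Slfn2 (0.946). Among the members themselves, r with Fcer1g was 0.946 for Fcgr1, 0.883 for Fcgr4, 0.880 for Cyba, 0.742 for Cybb and 0.722 for Fcgr2b. With Cybb, r was 0.785 for Cyba, 0.756 for Fcgr2b, 0.722 for Fcgr4 and 0.595 for Fcgr1. These correlations are a description over libraries that share mice and differ in tissue and diet.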

How the data were processed

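The authors trimmed paired-end reads with Trim Galore 0.6.6, aligned them to GRCm39 with HISAT2 2.2.0 and counted them per RefSeq transcript with HTSeq 0.13.5. The deposited counts are raw, and the deposited CPM are those counts scaled by the authors to each library's total, without TMM factors. How reads shared by transcripts were treated, and the strand setting, are not given in the sources used here. Of 32 value columns, 0 belonged to other samples.

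Symbols were assigned by RefSeq identifier. Counts were fitted with edgeR 4.0.16 in R 4.3.3 (TMM, glmQLFit and glmQLFTest with legacy=TRUE, keeping transcripts that exceeded 1 CPM in 3 or more of the 16 libraries, Benjamini-Hochberg over 13288 transcripts) and again after summing per symbol. Diets were compared in a fit of 4 groups. Tissues, and the difference of the diet responses, were compared with the mouse as a block. The pairing comes from the labels, which number SAT and VAT of 1 mouse alike. As a check, deviations from the group mean correlated between -0.009 and 0.173 within a mouse (median 0.0759), between -0.154 and 0.121 for different mice of 1 diet (median -0.0392) and between -0.0942 and 0.173 for lean and obese libraries that share only a number (median 0.0679), so the pairing rests on the labels. Ratios were taken on summed counts with 0.5 added and tested by exact permutation. The planned ratio of Fcgr3 to Fcgr2b was not computed, since Fcgr3 had at most 4 counts per library, and the planned likeness of Fcgr3 was likewise dropped. Protein sequences were not used here. The fits were tested on simulated data.

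The members, the lists of partners, signaling genes, other Fc receptors, myeloid transcription factors and cell type markers, and the tests were chosen with earlier results of these data known. Named genes are all members, Rac2, list genes called in a diet comparison, and the first markers of each list. Some planned genes are not reported here and do not enter the counts of their lists. Cd68, Ly6g, Rac1, Hvcn1, Fcgrt, Spi1, C1qb, Itgax, Pax5, Plin1 and the genes named for likeness to Fcer1g were chosen after their values were seen. Alternatives were RLE size factors, no filter, filterByExpr, DESeq2 1.42.0, legacy=FALSE, limma 3.58.1 voom with a random mouse effect, fits of 1 tissue, fits with and without a block, and each mouse left out in turn. Leaving out the mice of the shallowest VAT libraries was chosen after seeing the data. Tables were built in Python 3.11.15 (pandas 2.3.3, numpy 2.4.6, scipy 1.17.1) and plots in matplotlib 3.10.9.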

Additional observations from a re-analysis of the deposited data

Results flagged for a closer look

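Levels summed per gene were screened in 24 groups of 4 libraries for a library far from the other 3. Such a gap is found by chance in about 1 of 20 groups, and 3 were found. The highest lean VAT value of Cyba was 40.4 CPM, in replicate 1, from 63 counts of the shallowest library (95% Poisson interval 31.0 to 51.6 CPM), while the other 3 were at 17.6 to 20.3 CPM. The highest obese SAT value of Cybb was 3.73 CPM, in replicate 3, from 54 counts (2.80 to 4.86 CPM), beside 2.15 to 2.39 CPM in the others. The highest obese VAT value of Cybb was 7.67 CPM, in replicate 1, from 20 counts (4.68 to 11.8 CPM), beside 4.02 to 4.37 CPM in the others.

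The diet response of Fcer1g differed between the tissues, with a log2 difference of 0.94 between VAT and SAT (adjusted p = 0.00777, edgeR with the mouse as a block). With counts summed per gene and no such block it was not called. C1qb, Itgax, Pax5 and Tyrobp, from the marker and signaling lists, were called in the same direction, with log2 differences of 0.83, 1.55, 1.74 and 1.07 (edgeR). They were the only calls of their lists, at 1 of 11, 1 of 7, 1 of 5 and 1 of 11 transcripts (0.88% of all tested). C1qb, Itgax and Pax5 were chosen after their values were seen. No T cell, natural killer cell, mast cell, neutrophil or pan-leukocyte transcript was called, and the adipocyte marker Plin1 was called lower.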

How the results depend on the processing

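The counts of members called for the diet in SAT, the diet in VAT and VAT against SAT in obese mice stayed within 1.5 times their values under all alternatives run, at 2 to 3, 4 to 6 and 5 to 7 transcripts. A count of 7 needs more tested transcripts than the 6 of the main fit, and with no filter 12 were tested. For the difference of responses, no filter and DESeq2 each called 2, and leaving out 1 mouse gave 1 to 2, for transcripts and for summed genes alike. For VAT against SAT in lean mice, voom gave 1, leaving out the mice of the shallowest VAT libraries 1 and leaving out 1 mouse 0 to 2, again for both. Over all transcripts the calls for the difference of responses were 288, against 462 by DESeq2 and 134 to 403 without 1 mouse. Leaving out 1 mouse also gave 938 to 1489 transcripts for the diet in SAT (1468 with all mice; fewest without lean replicate 2), 832 to 1639 for the diet in VAT (1449) and 2551 to 4224 for VAT against SAT in obese mice (3905). Of these 4 counts, all but that of SAT were lowest without obese replicate 4. For summed genes the ranges were 927 to 1467 (1414 with all mice), 846 to 1626 (1482) and 2488 to 4075 (3822), and 134 to 387 for the difference of responses. The cause of these changes was not tested.

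Lean and obese mice with the same number share a number only. Their deviations correlated between -0.0942 and 0.173, and a replicate block called 3 members in SAT (Cyba added) and 6 in VAT. With such a block the Fcgr4 to Fcgr2b difference of 1.82 in VAT had an exact permutation p of 0.125, the smallest it can give. Without the replicate block of the mouse, 0 members were called for VAT against SAT in lean mice, for transcripts and for summed genes, the difference of responses gave 0 for summed genes, and over all features it gave 128 transcripts and 139 genes (301 with the block).

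Signs reversed for the values below, none of which was called under any alternative. For Fcer1g in lean mice, VAT against SAT was -0.0029 with RLE factors, -0.0057 with no filter, -0.0058 with legacy=FALSE, -0.0026 by DESeq2, -0.023 by voom, -0.0018 without the block and -0.084 without the mice of the shallowest VAT libraries, with -0.084 to 0.11 when 1 mouse was left out. Fcgr4 there gave 0.043 by voom and -0.32 to 0.15 without 1 mouse. Cybb gave -0.0064 without the shallowest and -0.0044 to 0.75 without 1 mouse, and its sum -0.17 and -0.16 to 0.54. Fcgr2b in SAT between diets ranged from -0.22 to 0.28 without 1 mouse. The Cybb to Cyba difference in SAT was -0.31 from the transcripts with the most counts and -0.33 to 0.40 without 1 mouse. The Fcgr4 to Fcgr2b difference in SAT kept its sign, from 1.18 to 1.84 without 1 mouse, and had an unadjusted exact permutation p of 0.0286 without lean replicate 3. The Fcgr3 to Fcgr2b ratio was not run. Among the tested members Cybb and Fcgr2b had the fewest counts, and the shallowest VAT libraries of each diet hold 5 and 18 counts of the main Cybb transcript.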
